A study of Mus musculus with 2207 samples.

Results

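Malat1, Neat1, Miat, Snhg11 and Pantr1 are 5 long RNAs that stay largely in the nucleus, and they were followed here across the cell types, neuron classes and genotypes of single nuclei from mouse cortex. The members were chosen by name, as the rows of both expression tables whose gene identifier maps to these symbols, and all 5 of 5 were found among 52636 genes. Malat1 and Neat1 are neighbouring transcripts that concentrate in nuclear speckles and in paraspeckles, respectively, which are bodies rich in RNA-processing proteins. Neat1 is the RNA scaffold on which paraspeckles form. Miat, also called Gomafu, is a nuclear RNA of neurons with repeats that bind splicing factor SF1, Snhg11 carries snoRNAs in its introns, and Pantr1 is transcribed next to the neural transcription factor gene Pou3f3 in the opposite direction. Because single nuclei rather than whole cells were sequenced, RNAs of this kind are well represented in such libraries.

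The series holds 2207 nuclei from 6 pools of C57BL/6 mice aged 14 weeks, sequenced by RamDA-seq, a full-length total RNA method, and all mice had received tamoxifen 2 times, at 100 mg/kg. The labels give an age of 3 weeks for this treatment, and the study's methods put a week between the doses. On 96-well plates there was a WT pool and a pool labelled Ehmt1delta/+, heterozygous for a deletion in Ehmt1, the gene of the histone H3K9 methyltransferase GLP. On 384-well plates there was a WT pool and an Ehmt1delta/+ pool, both with the Ehmt1 iTg transgene but without CamKII-CreER according to the labels, and pools labelled iTg and Ehmt1delta/+; iTg, which carried both the inducible transgene and CamKII-CreER, a tamoxifen-activated Cre driven by a promoter of forebrain excitatory neurons. The study's own legends describe CamKII-CreER in all 4 genotypes of this series of mice, so whether the WT and Ehmt1delta/+ pools of the 384-well plates carried the Cre is in conflict between the sources. Nuclei came from 3 mice for each genotype, and which mouse gave which nucleus is not labelled. The pool therefore served as the replicate, and p-values measure the spread between pools. Whether the mice of a genotype were the same on both plate formats is not stated, so the 2 pools of a genotype may not be independent animals. The deposited labels assign 1664 nuclei to neurons, 397 to oligodendrocytes and the rest to microglia.

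Values are RPKM, reads scaled to transcript length and to the read total of the nucleus. Read totals recovered from the steps of the values had medians of 323273 to 397880 in neurons of all pools, but of 441701 to 510639 in 96-well glia and of 39940 to 54877 in 384-well glia. All 4 neuron markers, all 5 microglia markers and all 5 oligodendrocyte markers were highest in their own cell type in every pool. The summed level of neuron markers was 152.97 to 257.22 RPKM in neurons, 1.63 to 64 RPKM in microglia and 2.56 to 52.8 RPKM in oligodendrocytes. Ehmt1 itself, summed over its annotated exons, averaged 18.7 and 19.5 RPKM in neurons of the WT pools and 31.2 and 31.7 RPKM in those of the pools labelled Ehmt1delta/+. The gene total was thus higher, not lower, in the pools labelled Ehmt1delta/+ (log2 difference 0.71, SE 0.10, limma adjusted p = 0.461), and because it does not single out the deleted part it does not check the label. Neurons of the iTg pool averaged 20.7 RPKM, beside 19.5 RPKM in the 384-well WT pool. Those of the Ehmt1delta/+; iTg pool averaged 33.9 RPKM, beside 31.7 RPKM in the 384-well Ehmt1delta/+ pool. Induction of the transgene was not tested.

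The 3 stretches of transcript that follow show what is known to set these RNAs apart, taken from GENCODE M21 on mm10. Malat1 (ENSMUSG00000092341.2) lies on the minus strand of chromosome 19 at 5795690 to 5802672, and Neat1 (ENSMUSG00000092274.2) on the same strand at 5824708 to 5845478, with 22035 bases between them. Both are annotated as lincRNA, and their longest transcripts are single exons. Neat1 has 4 annotated transcripts, and its gene values do not single out the longest. The 3′ ends of Malat1 and of the longest Neat1 transcript are not made by ordinary polyadenylation. A tRNA-like RNA is cut off, and the new end is protected by a triple helix of a U-rich tract with an A-rich tail. The 100 bases before that cut in Malat1 (chr19:5795982-5796081, minus strand) and the last 100 bases of Neat1 (chr19:5824708-5824807, minus strand) are shown 5′ to 3′, with the longest run that both stretches share, of 16 bases, in capitals.
Malat1: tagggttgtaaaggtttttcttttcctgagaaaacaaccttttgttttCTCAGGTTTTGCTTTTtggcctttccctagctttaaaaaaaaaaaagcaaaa
Neat1: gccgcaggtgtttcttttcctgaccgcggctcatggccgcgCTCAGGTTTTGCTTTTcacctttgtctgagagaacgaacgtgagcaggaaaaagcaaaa
Miat (ENSMUSG00000097767.8, lincRNA) lies on the minus strand of chromosome 5 at 112213228 to 112229395. Its exon 7 of 7 holds a cluster of TACTAAC, the branch point sequence that SF1 binds, and the stretch at chr5:112216750-112216814 on the minus strand shows 3 copies in capitals.
Miat: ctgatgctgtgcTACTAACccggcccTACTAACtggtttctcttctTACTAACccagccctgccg
The longest Miat transcript, of 9163 bases, held 6 copies of TACTAAC on its own strand and 0 of the reverse complement. The longest Neat1 transcript held 1 copy, and those of Malat1, Snhg11 and Pantr1 held 0. Among 1642 annotated transcripts of at least 8000 bases, 24.5% held 1 copy or more and 0.183% held as many as Miat. Snhg11 (ENSMUSG00000044349.15) lies on the plus strand of chromosome 2 at 158375638 to 158386145 and is annotated as protein_coding, and Pantr1 (ENSMUSG00000060424.14, lincRNA) on the minus strand of chromosome 1 at 42590782 to 42694842, 925 bases from Pou3f3.

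Malat1 was abundant in every nucleus. It averaged 4149 and 4647 RPKM in neurons of the 96-well pools (WT and Ehmt1delta/+), and 2755, 2994, 2717 and 3701 RPKM in those of the 384-well pools (WT, Ehmt1delta/+, iTg and Ehmt1delta/+; iTg). In oligodendrocytes it averaged 6105 and 6626 RPKM, then 3111, 3076, 3096 and 4672 RPKM in the same order. In microglia it averaged 2391 and 2650 RPKM, then 1226, 1068, 1191 and 1783 RPKM. Within each pool oligodendrocytes were highest, neurons next and microglia lowest, and the 96-well pools were above the 384-well pools in every cell type. Malat1 took 1.90% to 3.24% of the reads of a neuron, 2.15% to 4.63% of those of an oligodendrocyte and 0.746% to 1.85% of those of a microglial nucleus on average. It was above 0 in all 2207 nuclei, and its coefficient of variation over the nuclei of a pool was 0.305 to 0.360 in neurons.

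Malat1 was 2.12-fold higher in neurons than in microglia (log2 difference 1.08, SE 0.14, limma adjusted p = 2.46e-05, higher in 6 of 6 pools). In this comparison 44.1% of 26315 genes were called higher and 19.3% lower (63.4% in either direction), so a call alone says little about a gene. Malat1 was also lower in microglia than in oligodendrocytes (log2 difference -1.39, SE 0.14, adjusted p = 4.45e-06), where 21.2% of genes were called lower and 21.4% higher (42.5% in either direction). Between neurons and oligodendrocytes the log2 difference was -0.30 (SE 0.14), lower in neurons in 6 of 6 pools but with an adjusted p of 0.102. In that comparison 38.1% of genes were called higher and 12.6% lower in neurons (50.6% in either direction). Labels were made by the authors from clusters of the same expression values, so these contrasts describe the labelled types. Over all genes tested, the median log2 difference was 0.81 for neurons against microglia and 0.59 for neurons against oligodendrocytes. Centring each mean of a pool and cell type on its median gene takes out such shifts between cell types. It lowered the neuron against microglia difference of Malat1 to 0.24 (limma adjusted p = 0.240) and moved that of neurons against oligodendrocytes to -1.03 (adjusted p = 0.000199). An exact sign-flip permutation test over the 6 pools gave a two-sided p of 0.03125, the smallest it allows, for all 3 Malat1 contrasts.

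**Figure D1:**
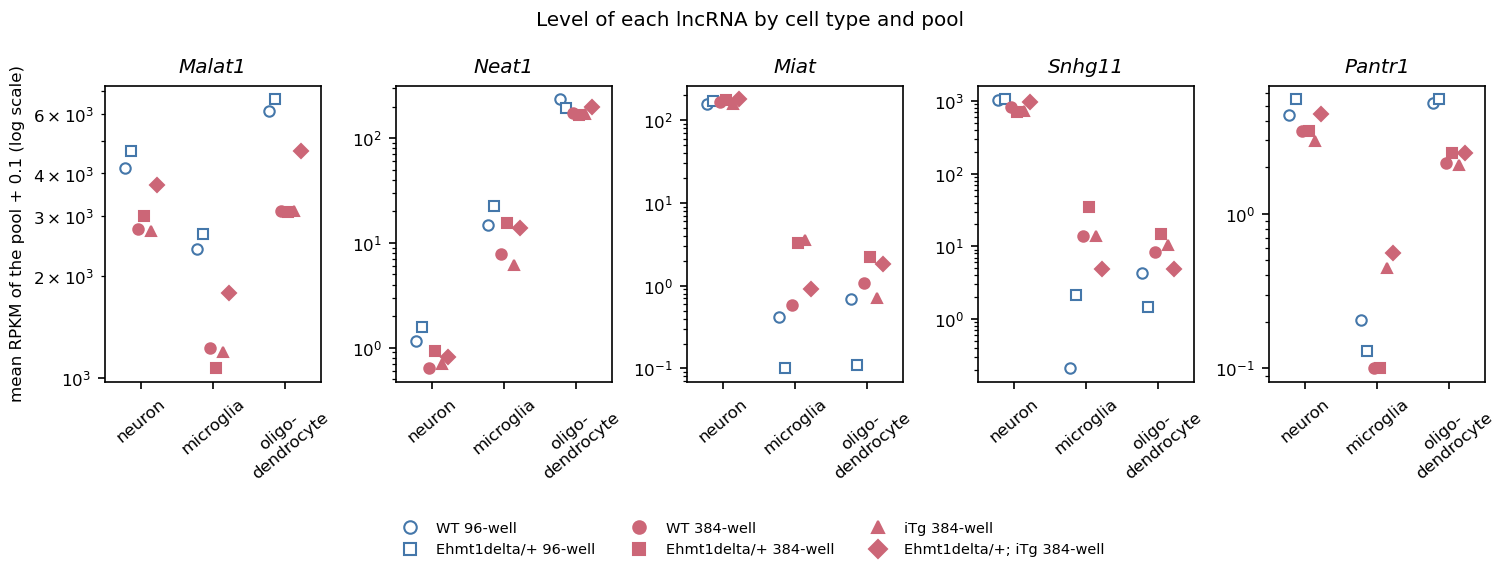
Mean RPKM of each pool plus 0.1, on a log axis, for each lncRNA in neurons, microglia and oligodendrocytes, 1 point per pool. Neat1 in oligodendrocytes sits at 165.63 to 236.9 RPKM in the 6 pools, above every neuron pool, while Miat and Snhg11 are highest in neurons in every pool.

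Neat1 had the opposite pattern to the neuronal RNAs. In oligodendrocytes it averaged 236.9 and 193.8 RPKM in the 96-well pools (WT and Ehmt1delta/+), and 174.96, 165.6, 170.8 and 199.005 RPKM in the 384-well pools (WT, Ehmt1delta/+, iTg and Ehmt1delta/+; iTg). In microglia it averaged 14.8 and 22.3 RPKM, then 7.68, 15.5, 6.09 and 13.9 RPKM. In neurons it averaged 1.06 and 1.49 RPKM, then 0.533, 0.829, 0.598 and 0.722 RPKM. The pool means of the 3 cell types did not overlap. Neat1 was lower in neurons than in oligodendrocytes on the log2(mean RPKM + 0.1) scale (log2 difference -7.67, SE 0.22, limma adjusted p = 2.52e-11, 6 of 6 pools). It was lower in neurons than in microglia as well (log2 difference -3.74, SE 0.22, adjusted p = 1.15e-08), and lower in microglia than in oligodendrocytes (log2 difference -3.94, SE 0.22, adjusted p = 1.08e-08).

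Single nuclei separated oligodendrocytes from the other types more clearly than microglia from neurons. A Neat1 value was above 0 in 97.8% to 100% of the oligodendrocytes of a pool, in 70% to 100% of its microglia and in 48.2% to 67.6% of its neurons. Values above 0 include parts of a read, and 34.6% of those of Neat1 came to whole reads, so a value above 0 need not hold a whole read. The share of neurons was 48.2% to 51.3% in the 96-well pools and 57.5% to 67.6% in the 384-well pools, where the mean levels were lower. Of 1664 neurons, 1 reached the 10th percentile of the oligodendrocytes of its own pool, and 2.05% of microglia did. In 4 pools 11.2% to 12.3% of neurons reached the 10th percentile of microglia, and in the 384-well Ehmt1delta/+ and iTg pools that percentile was 0, so it separates nothing there. In neurons the mean rested on few nuclei: the median was 0 to 0.128 RPKM, the coefficient of variation was 2.07 to 4.68, and the highest neuron had 69.8 RPKM. Neurons held 0.305% to 0.767% of the oligodendrocyte level of Neat1, while the median over the 5 oligodendrocyte markers was 0.148% to 0.279% (single markers from 0.00738% to 1.28%). The part of oligodendrocyte RNA in the neuronal Neat1 value was not tested. Microglia held 3.56% to 11.5% of the oligodendrocyte Neat1 level, above each of the 5 oligodendrocyte markers, at 0% to 3.25%.

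**Figure D2:**
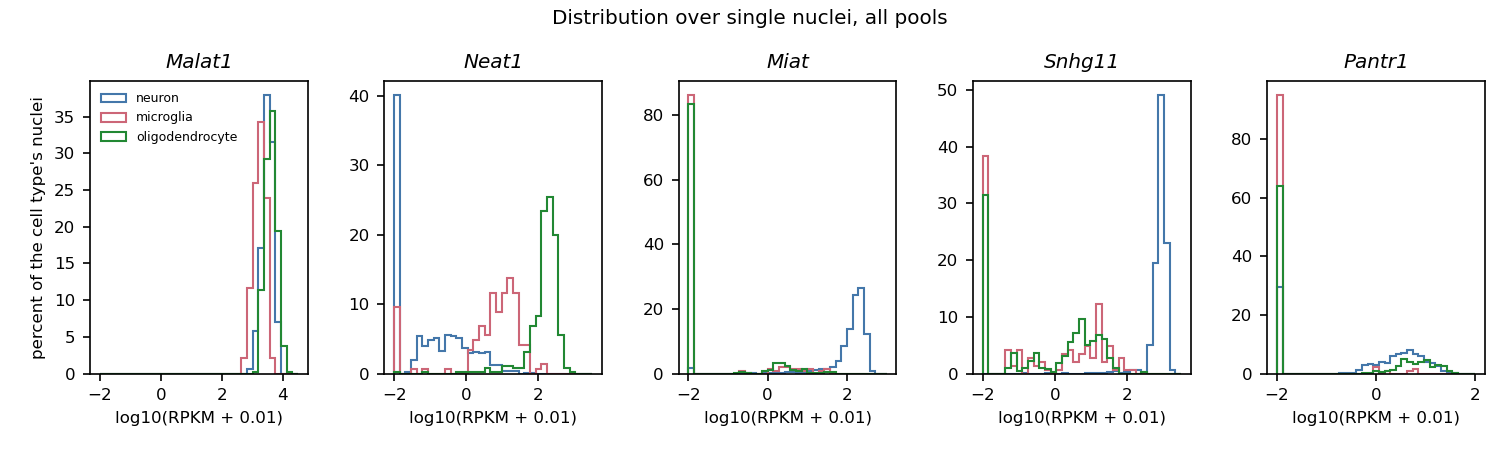
Percent of the nuclei of each cell type, all pools together, by log10(RPKM + 0.01), so that nuclei at 0 fall at -2. Neat1 forms 3 shifted distributions with oligodendrocytes highest, Miat and Snhg11 separate neurons from both glial types, and Malat1 overlaps in all 3.

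Miat and Snhg11 were neuronal RNAs. Miat averaged 156.9 and 171.9 RPKM in neurons of the 96-well pools (WT and Ehmt1delta/+), and 167.9, 175.5, 158.1 and 180.2 RPKM in the 384-well pools (WT, Ehmt1delta/+, iTg and Ehmt1delta/+; iTg), a spread of 9.38 RPKM (SD, n = 6 pools). It averaged 0 to 3.45 RPKM in microglia and 0.0105 to 2.15 RPKM in oligodendrocytes. It was detected in 97.2% to 99.2% of the neurons of a pool. In microglia of the 96-well Ehmt1delta/+ pool it was above 0 in 0 of 32 nuclei, which allows a share of up to 9.38%, counting error only, and in the other 5 pools it was above 0 in 5.56% to 31.6% of microglia. The log2 difference was 7.74 (SE 0.61, limma adjusted p = 2.76e-07) against oligodendrocytes and 7.71 (SE 0.61, adjusted p = 2.00e-07) against microglia, each in 6 of 6 pools.

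Snhg11 averaged 1023 and 1067 RPKM in neurons of the 96-well pools (WT and Ehmt1delta/+), and 815, 710.0, 736 and 969.8 RPKM in the 384-well pools (WT, Ehmt1delta/+, iTg and Ehmt1delta/+; iTg). It was above 0 in all 1664 neurons, ranked 10th to 26th of all genes by mean RPKM, and took 0.605% to 0.909% of their reads. Its lowest value in a neuron was 0.135 RPKM. Of the neurons, 7 did not exceed the 90th percentile of Snhg11 in the oligodendrocytes of their pool, and 10 did not exceed that of the microglia. In microglia it averaged 0.108 and 2.05 RPKM, then 13.7, 34.3, 13.8 and 4.79 RPKM, and in oligodendrocytes 4.21 and 1.35 RPKM, then 8.23, 14.8, 10.4 and 4.76 RPKM. The glial values were higher in the 384-well pools, whose glia were also the shallowest libraries. Snhg11 was higher in neurons than in oligodendrocytes (log2 difference 7.23, SE 0.83, limma adjusted p = 8.56e-06) and than in microglia (log2 difference 7.47, SE 0.83, adjusted p = 4.61e-06), in 6 of 6 pools. None of the 397 oligodendrocytes and none of the microglia reached the 10th percentile of Snhg11 in the neurons of their pool.

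The low glial values of Snhg11 and Miat were set beside those of the neuron markers Snap25, Syt1, Rbfox3 and Stmn2. Microglia held 0.0105% to 4.83% of the neuronal Snhg11 level and 0% to 2.18% of the neuronal Miat level, while the median of the 4 markers was 1.26% to 19.6%. Oligodendrocytes held 0.126% to 2.09% of Snhg11 and 0.00611% to 1.22% of Miat, against a marker median of 1.51% to 12.8%. The 96-well WT pool had the highest marker medians, 19.6% in microglia and 12.8% in oligodendrocytes, but 0.0105% and 0.412% for Snhg11. The 384-well Ehmt1delta/+ pool had the highest Snhg11 shares, 4.83% and 2.09%, with marker medians of 2.03% and 1.51%. The pool with the highest marker share was thus not the pool with the highest Snhg11 share, and the part of neuronal RNA in the glial values was not tested.

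Pantr1 was low in level and was present in both neurons and oligodendrocytes. In neurons it averaged 4.26 and 5.38 RPKM in the 96-well pools (WT and Ehmt1delta/+), and 3.30, 3.34, 2.84 and 4.29 RPKM in the 384-well pools (WT, Ehmt1delta/+, iTg and Ehmt1delta/+; iTg). In oligodendrocytes it averaged 5.12 and 5.42 RPKM, then 2.04, 2.38, 1.98 and 2.36 RPKM. In microglia it averaged 0 to 0.460 RPKM and was above 0 in at most 8.70% of the nuclei of a pool. Neurons exceeded microglia by 4.28 on the log2 scale (SE 0.42, limma adjusted p = 1.48e-06, 6 of 6 pools), and microglia were below oligodendrocytes by a log2 difference of -3.92 (SE 0.42, adjusted p = 6.03e-06). Between neurons and oligodendrocytes the log2 difference was 0.37 (SE 0.42, adjusted p = 0.505). It turned to -0.36 when each mean of a pool and cell type was centred on its median gene. Neurons were higher in the 4 384-well pools and lower in the 2 96-well pools. Pantr1 was detected in 60.7% to 78.9% of neurons, and in 53.4% and 67.6% of 96-well oligodendrocytes but 14.1% to 31.3% of 384-well ones.

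Some genes beside these loci were listed by position and not by their values. Pou3f3, the homeobox gene next to Pantr1, averaged 10.5 to 12.4 RPKM in neurons, 14.2 to 24.95 RPKM in oligodendrocytes and 0 to 0.958 RPKM in microglia. Pou3f3 was higher in neurons than in microglia (log2 difference 5.21, SE 0.49, limma adjusted p = 1.09e-06), as Pantr1 was. Pantr2, another noncoding RNA of that locus, averaged 6.27 to 8.07 RPKM in neurons and 10.4 to 19.1 RPKM in oligodendrocytes and was listed at 0 in microglia of all 6 pools. Beside Neat1 and Malat1, Frmd8 was lower in neurons than in oligodendrocytes (log2 difference -4.04, SE 0.21, adjusted p = 6.48e-09), whereas Ltbp3 was higher (log2 difference 1.73, SE 0.23, adjusted p = 3.33e-05).

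Within neurons, nuclei were called excitatory where Slc17a7, a vesicular glutamate transporter, exceeded Gad1, a GABA-synthesising enzyme, and inhibitory in the opposite case. This called 1324 neurons excitatory and the rest inhibitory, apart from 7 in neither class. Miat had the largest difference of the 5. It averaged 180.57 to 203.8 RPKM in excitatory and 53.8 to 71.3 RPKM in inhibitory neurons, with no overlap between pools, and was 2.97-fold higher in excitatory neurons (log2 difference 1.57, SE 0.08, limma adjusted p = 2.09e-05, 6 of 6 pools). In this comparison 19.3% of 25389 genes were called higher and 21.4% lower in excitatory neurons (40.7% in either direction). Single nuclei overlapped: 24.9% of inhibitory nuclei reached the 10th percentile of Miat in the excitatory nuclei of their pool.

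Malat1 averaged 2889 to 4892 RPKM in excitatory and 2039 to 3510 RPKM in inhibitory neurons, 1.41-fold higher in excitatory ones (log2 difference 0.50, SE 0.06, limma adjusted p = 0.000638). The difference ran from 0.43 to 0.54 over the 6 pools, the narrowest range of the 5, although the ranges of levels overlap across plate formats. Neat1 was also higher in excitatory neurons (log2 difference 0.70, SE 0.15, adjusted p = 0.00876, 6 of 6 pools), at 0.594 to 1.68 RPKM against 0.374 to 0.685 RPKM. These means lie near the floor, with medians of 0.0285 to 0.159 RPKM in excitatory and 0 to 0.0812 RPKM in inhibitory neurons. Snhg11 ran the other way, at 688 to 1047 RPKM in excitatory and 809 to 1162 RPKM in inhibitory neurons (log2 difference -0.24, SE 0.06, adjusted p = 0.0219, lower in 6 of 6 pools). Pantr1 was higher in excitatory neurons in 5 of 6 pools (log2 difference 0.49, SE 0.14, adjusted p = 0.0313). The Pantr1 call was lost without any 1 pool other than the 96-well Ehmt1delta/+ pool (adjusted p up to 0.0816). The Snhg11 call was lost without the 96-well WT, the 384-well WT or the iTg pool (adjusted p up to 0.0659). Where classes required the other marker at 0, the Neat1, Pantr1 and Snhg11 calls were lost. The exact sign-flip permutation p was 0.03125 for Malat1, Neat1, Miat and Snhg11 and 0.0625 for Pantr1.

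**Figure D3:**
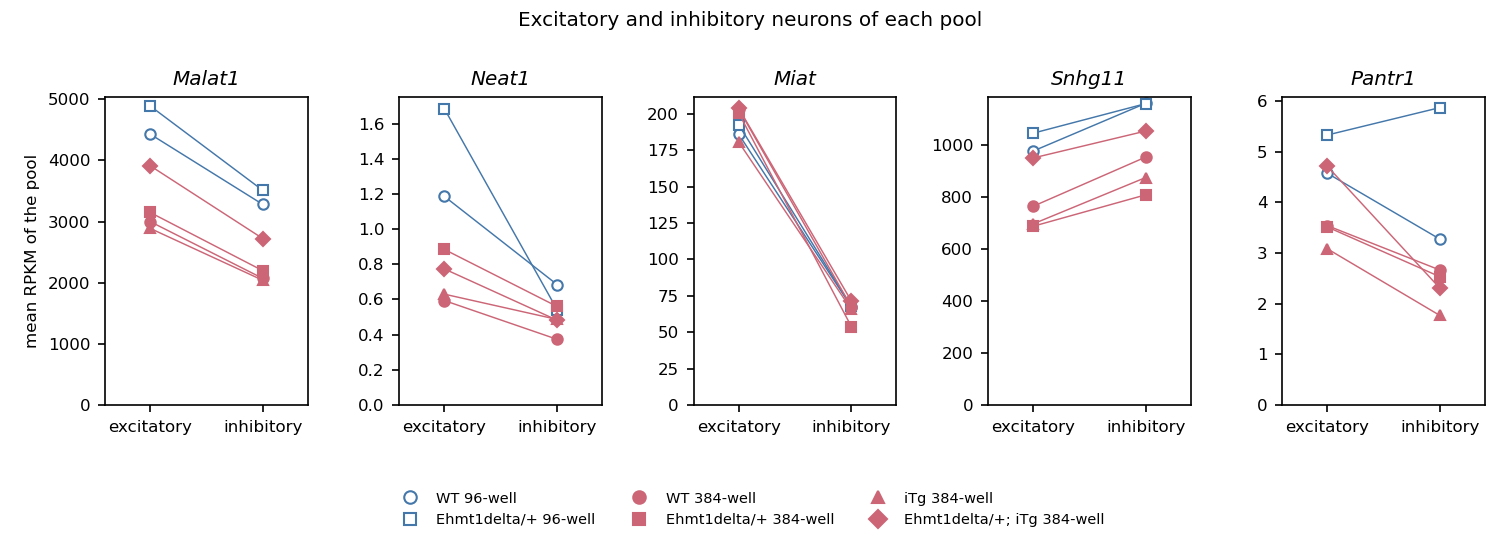
Mean RPKM in excitatory and inhibitory neurons, with a line joining the 2 classes of each pool. Miat falls from 180.57 to 203.8 RPKM to 53.8 to 71.3 RPKM in every pool, Malat1 lines run in parallel, and Snhg11 lines rise.

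Excitatory nuclei were further placed by which of Cux2, Rorb, Fezf2 and Foxp2, and inhibitory nuclei by which of Sst, Pvalb, Vip and Lamp5, was highest relative to its mean in that class and plate format. These genes mark cortical layers and interneuron types, and the levels are given as a description over pools with at least 5 nuclei. Miat had its lowest mean over pools in the Pvalb group, which marks fast-spiking interneurons, at 31 ± 13.5 RPKM (SD, n = 6 pools). There it was below the inhibitory mean in 6 of 6 pools. In the Lamp5 group Miat was 65.9 ± 20.6 RPKM (n = 6 pools), and its range overlaps that of the Pvalb group. In the 384-well Ehmt1delta/+ pool the Lamp5 group had 24.7 RPKM, below the Pvalb group at 37.4 RPKM. Miat was 88.2 ± 9.85 RPKM in the Sst group and 81.8 ± 10.6 RPKM in the Vip group (n = 5 pools), whose ranges overlap. Among excitatory groups the mean of Miat over pools was highest in the Rorb group, at 218.6 ± 23.6 RPKM, and lowest in the Foxp2 group, at 174.7 ± 20.4 RPKM (both n = 6 pools). The ranges overlap. In the 96-well WT and Ehmt1delta/+ pools the Rorb group had 191.2 and 196.7 RPKM, below the Fezf2 group at 201.8 and 204.1 RPKM. In the 384-well WT pool the Foxp2 group had 209.6 RPKM, above the Cux2 group at 190.6 RPKM. Pantr1 stood at 5.13 ± 1.22 RPKM in the Cux2 group and 2.20 ± 0.45 RPKM in the Foxp2 group (both n = 6 pools), which do not overlap over the 6 pools. Its lowest mean over pools was again in the Pvalb group, at 1.18 ± 0.47 RPKM (SD, n = 6 pools). In the iTg pool, however, Pantr1 was at 0 RPKM in the Lamp5 group and 1.19 RPKM in the Pvalb group. In the 384-well Ehmt1delta/+ pool the Foxp2 group had 1.56 RPKM of Pantr1, below the Pvalb group at 1.66 RPKM. Snhg11 was above the excitatory mean in 6 of 6 pools in the Rorb and Fezf2 groups and below it in 6 of 6 in the Cux2 and Foxp2 groups, with ratios to that mean of 1.09, 1.08, 0.95 and 0.955. Malat1 had mean ratios of 0.926 to 1.05 to the excitatory mean in the 4 excitatory groups. Neat1 levels overlapped among the 4 excitatory groups, and in the Lamp5 group Neat1 was above the inhibitory mean in 6 of 6 pools (mean ratio 1.61).

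**Figure D4:**
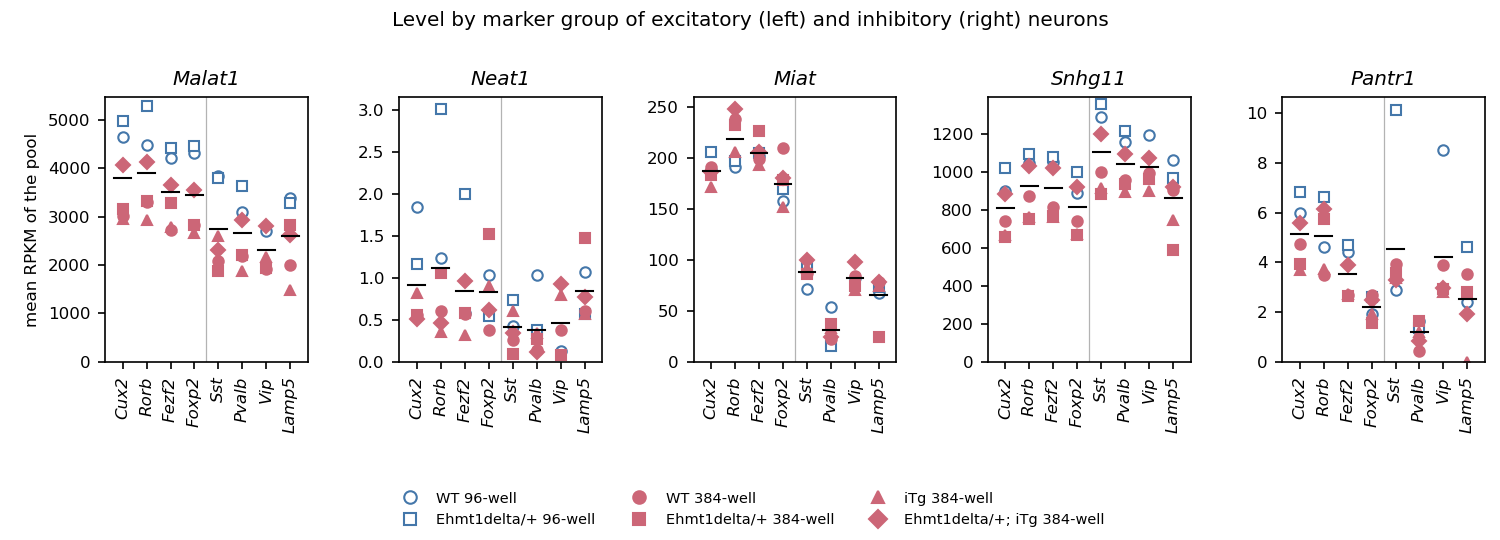
Mean RPKM by marker group, 1 point per pool with at least 5 nuclei and a bar at the mean of the pools. By the mean of the pools, Miat and Pantr1 are lowest in the Pvalb group, at 31 and 1.18 RPKM.

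Malat1, Miat and Snhg11 were dense enough to be compared nucleus by nucleus. Spearman's rho among excitatory nuclei was -0.03 to 0.19 for Malat1 and Snhg11, 0.07 to 0.22 for Malat1 and Miat, and 0.09 to 0.25 for Miat and Snhg11 over the 6 pools, given as a description of nuclei that share libraries. Among inhibitory nuclei it was -0.29 to 0.22 for Malat1 and Snhg11 (median -0.12), -0.38 to 0.05 for Malat1 and Miat (median -0.27) and 0.18 to 0.45 for Miat and Snhg11. Malat1 and Miat thus had a positive rho in excitatory nuclei of all 6 pools and a negative one in inhibitory nuclei of 5 of 6 pools, and this difference was not tested. In excitatory nuclei Malat1 also followed the read total in the 384-well pools, with rho of 0.45 to 0.55, and was at -0.03 and -0.13 in the 96-well pools.

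The comparison of pools labelled Ehmt1delta/+ with WT asked whether these RNAs differ where 1 Ehmt1 copy is labelled as deleted. With 2 pools per genotype and plate format as a term, limma called 0 of 23853 genes in neurons at an adjusted p under 0.05, with 761 higher (3.19%) and 1667 lower (6.99%) at an unadjusted p under 0.05. Neat1 in neurons was the member with the smallest p, at a log2 difference of 0.50 (SE 0.10, unadjusted p = 0.0117, limma adjusted p = 0.462), with 0.45 in the 96-well and 0.55 in the 384-well pair. On the 3 plate codes that both 96-well pools share, Neat1 was higher in the Ehmt1delta/+ neurons on 2 and lower on 1. No gene was called in excitatory or inhibitory neurons taken alone, where 2.75% and 1.85% of genes were higher and 6.21% and 3.93% lower at an unadjusted p under 0.05 by limma. In excitatory neurons the Neat1 difference was 0.49 (SE 0.11, adjusted p = 0.529) and in microglia 0.80 (SE 0.47, adjusted p = 0.920). In oligodendrocytes, where Neat1 is abundant, it was -0.18 (SE 0.26, adjusted p = 0.936).

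For the other members in neurons the log2 difference was 0.14 (SE 0.10) for Malat1, 0.10 (SE 0.10) for Miat, -0.07 (SE 0.12) for Snhg11 and 0.17 (SE 0.13) for Pantr1, with limma adjusted p of 0.679, 0.785, 0.881 and 0.696. In microglia 0 of 13686 genes were called (0.899% higher and 1.03% lower at an unadjusted p under 0.05), and Miat and Pantr1 did not pass the filter on low values. In oligodendrocytes 0 of 12832 genes were called (1.68% higher and 3.04% lower at an unadjusted p under 0.05), and Miat did not pass. Snhg11 in microglia differed by 2.34 (SE 0.75, adjusted p = 0.920), at levels under 5% of the neuronal one. All WT nuclei of the 384-well plates carried 1 plate code and the other 3 pools another, so there plate code and genotype cannot be told apart.

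**Figure D5:**
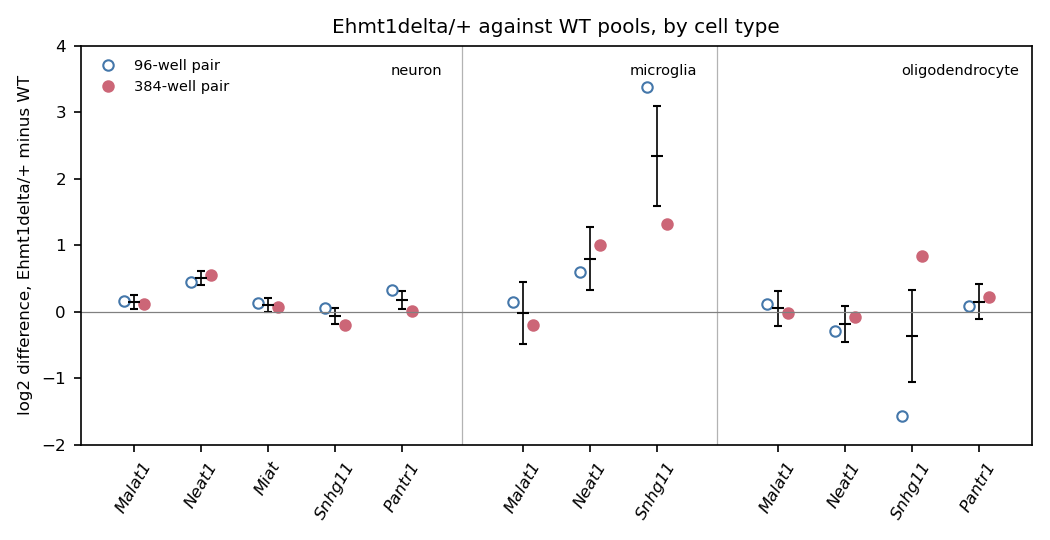
Log2 difference of mean RPKM + 0.1 between pools labelled Ehmt1delta/+ and WT, with the fitted value and its SE as a bar and the pair of each plate format as points. Neat1 in neurons is near 0.5 in both formats, and no value passed the adjusted threshold.

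For the induced transgene there was 1 pool per genotype on the 384-well plates, so values are given with no test. Malat1 was higher in the Ehmt1delta/+; iTg pool than in the Ehmt1delta/+ pool in neurons (3701 against 2994 RPKM, 1.24-fold), microglia (1783 against 1068 RPKM, 1.67-fold) and oligodendrocytes (4672 against 3076 RPKM, 1.52-fold). A rise of at least 1.2-fold was seen for 39.9%, 38.6% and 39.7% of genes in the 3 cell types, so Malat1 shared this with many genes. Measures of RNA quality also differed between these pools. In microglia the median share of mitochondrial reads was 1.35% in the Ehmt1delta/+; iTg pool and 5.11% in the Ehmt1delta/+ pool. In oligodendrocytes it was 0.341% and 0.677%. The median number of genes detected was 5708 and 4659 in microglia, 5859 and 4770 in oligodendrocytes and 14713 and 13652 in neurons, in the same order. In the 384-well WT and iTg pools the mitochondrial share was 1.29% and 1.49% in microglia and 0.172% and 0.696% in oligodendrocytes. Genes detected there were 5054 and 4571 in microglia, 5004 and 4586 in oligodendrocytes and 14447 and 13140 in neurons. Malat1 stood at 1226 and 1191 RPKM in microglia of the WT and iTg pools. The part of the quality differences in the Malat1 values was not tested. Between the Ehmt1delta/+; iTg and Ehmt1delta/+ pools a fall of at least 1.2-fold was seen for 15.7% of genes in neurons. Snhg11 was higher in neurons of the Ehmt1delta/+; iTg pool (969.8 against 710.0 RPKM, 1.37-fold). It was lower in the microglia (4.79 against 34.3 RPKM) and oligodendrocytes (4.76 against 14.8 RPKM) of that pool, where 25.1% and 26.3% of genes were at least 1.2-fold lower. Between the iTg and WT pools Malat1 stood at 2717 and 2755 RPKM in neurons and at 3096 and 3111 RPKM in oligodendrocytes. There 8.27%, 27.6% and 26.5% of genes were at least 1.2-fold higher and 27.5%, 30.4% and 35.2% at least 1.2-fold lower in neurons, microglia and oligodendrocytes, and no member reached that fold in neurons.

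The genes of proteins that share nuclear bodies with Malat1 and Neat1 were listed next. Of 16 paraspeckle protein genes, 1 was higher and 3 were lower in neurons than in oligodendrocytes, where 38.1% of all genes tested were higher and 12.6% lower, and the median log2 difference was -0.04 beside 0.59 over all genes. Nono, a core paraspeckle protein, was lower (log2 difference -0.51, SE 0.16, limma adjusted p = 0.0177), at 6.17 to 9.98 RPKM in neurons and 8.55 to 13.9 RPKM in oligodendrocytes. Of 16 nuclear speckle protein genes, 1 was higher and 7 were lower in neurons, read against the same shares, with a median of -0.21. Son, which scaffolds speckles, was lower (log2 difference -0.72, SE 0.13, adjusted p = 0.000445), and Rnps1 was the gene that was higher (log2 difference 2.26, SE 0.24, adjusted p = 3.61e-06). Of 5 splicing proteins associated with Miat, Celf3 was higher in neurons (log2 difference 4.75, SE 0.32, adjusted p = 5.42e-08) and Qk, a splicing regulator of oligodendrocytes, lower (log2 difference -4.39, SE 0.17, adjusted p = 4.82e-10). Qk was also lower in excitatory than in inhibitory neurons (log2 difference -1.75, SE 0.14, adjusted p = 0.000103). In the Ehmt1delta/+ comparisons described above no gene at all was called, so the absence of calls in these lists says nothing about them.

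Other RNAs of the same kind were compared with the members. Of 15 other nuclear lncRNAs tested, 10 were higher and 3 lower in neurons than in oligodendrocytes, with a median log2 difference of 1.69 beside 0.59 over all genes, of which 38.1% were higher and 12.6% lower. Those higher included Meg3 (log2 difference 8.02, SE 0.55, limma adjusted p = 6.87e-08), Rian (log2 difference 7.86, SE 0.44, adjusted p = 1.14e-08) and Mirg (log2 difference 8.23, SE 0.27, adjusted p = 7.89e-11), 3 RNAs of 1 imprinted cluster. Sox2ot, which overlaps the gene of a glial and progenitor transcription factor, was lower (log2 difference -4.55, SE 0.22, adjusted p = 2.36e-09), like Neat1. Between neuron classes 10 of 16 were lower in excitatory neurons and 1 was higher, where 21.4% of all genes were lower and 19.3% higher. Sox2ot had the largest of these differences, at 0.0722 to 0.203 RPKM in excitatory and 9.39 to 23.9 RPKM in inhibitory neurons. Of 13 snoRNA host genes tested, the group of Snhg11, 2 were higher in neurons than in oligodendrocytes and 0 were lower, beside the 38.1% and 12.6% of all genes. The 2 were Snhg14 with a log2 difference of 5.90 (SE 0.37, adjusted p = 3.19e-08) and Snhg1 with 0.66 (SE 0.23, adjusted p = 0.0326).

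The genes whose levels were most like each member were found by Pearson's r over the 18 means of pool and cell type, which share libraries and plate formats. For Neat1 they were Cdk19 (r = 0.99), Trf (r = 0.99), which encodes transferrin, and Ppfibp2 (r = 0.99). Meg3 came first for both Miat (r = 0.98) and Snhg11 (r = 0.98), and Miat and Snhg11 had r = 0.95 with each other. Ttc39c (r = 0.98) led for Pantr1 and Fsd1l (r = 0.96) for Malat1.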

How the data were processed

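The authors trimmed reads with Fastq-mcf, mapped them with HISAT2 2.0.4 to mm10, counted them per gene with featureCounts of Subread 1.5.0 and Gencode annotation, and deposited RPKM for 52636 genes, not counts. They assigned cell types from clusters and markers. The methods give default counting parameters, under which featureCounts counts whole reads and does not use strand. Other annotated genes overlap each member (1 to 5), and 13.3% of Malat1, 34.6% of Neat1, 18.9% of Miat, 18.9% of Snhg11 and 96.0% of Pantr1 values above 0 came to whole reads. The remaining values hold parts of reads, which those defaults do not give, so the settings used are not known. Whether reads of overlapping genes were told apart by strand is not known either. Symbols came from GENCODE M21 (52403 of 52636 identifiers). Read totals are estimates from value steps.

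RPKM were averaged per pool and cell type, and log2(mean + 0.1) was fitted with limma 3.58.1 (R 4.3.3), with pool as block (18 means, 10 residual degrees of freedom; 12 means and 5 for neuron classes) or plate format as a term (4 means, 1 residual degree of freedom), for genes above 0 in at least 10% of nuclei of a group. P-values are two-sided, Benjamini-Hochberg adjusted over all genes tested, with a threshold of 0.05. The limma fits and the read-total estimate were tested on simulated data. Intervals and floors (95%, 3 counts) cover counting error only. Named genes are the members, list genes that passed, at most 4 per list and direction, and the 3 most alike genes; the text gives a selection. Members and lists were chosen with earlier results of these data known, and the 1.2-fold threshold after the values were seen.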

Additional observations from a re-analysis of the deposited data

Results flagged for a closer look

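Among the labelled cell types, the difference between pools labelled Ehmt1delta/+ and WT had opposite signs on the 2 plate formats in 4 cases. Each rests on 1 pool per genotype, and the difference between formats was not tested. Snhg11 in neurons differed by 0.061 (log2) in the 96-well and by -0.20 in the 384-well pair. Snhg11 in oligodendrocytes differed by -1.58 in the 96-well and by 0.84 in the 384-well pair, at levels of 1.35 to 14.8 RPKM. The 96-well WT mean of 4.21 RPKM rested on few nuclei: the median of 73 was 0 and the highest had 252.1 RPKM. On the 3 plate codes that both 96-well pools share, Snhg11 was higher in the Ehmt1delta/+ oligodendrocytes on 2, against the sign of the pool means. Malat1 in microglia differed by 0.15 and -0.20, and Malat1 in oligodendrocytes by 0.12 and -0.016. Signs also differed within the neuron classes (96-well, then 384-well). Excitatory neurons had 0.050 and -0.020 for Miat, 0.098 and -0.15 for Snhg11, and 0.22 and -0.011 for Pantr1. Inhibitory neurons had -0.29 and 0.48 for Neat1, 0.0073 and -0.32 for Miat, and 0.82 and -0.071 for Pantr1.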

How the results depend on the processing

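No paired analysis was possible because, between genotypes, the labels number no replicates and tie no nucleus to a mouse. The plate codes that both 96-well pools share split the nuclei of the same pools, and only their values were compared. Cell types and neuron classes were compared within pools, with the pool as block. Among alternative values, 11 reversed, 6 gained and 1 lost a call between cell types, 18 of 80 lost a call between neuron classes, and 8 reversed and 12 moved for Ehmt1delta/+ against WT, while the others kept direction and side of the threshold. The former were, in log2 differences (the cause was not tested): neurons against oligodendrocytes, Malat1 passed the threshold with limma's trend (-0.30), a mean of log2 values (-0.34), median scaling (-1.03), no filter (-0.30) and a pseudocount of 1 (-0.30). Pantr1 turned to -0.13 in 96-well pools and to -0.36 with median scaling, and passed with a mean of log2 values (1.58). Malat1 in neurons against microglia lost its call with median scaling (0.24). Microglia against oligodendrocytes, Miat (0.02) turned to -0.43 in 96-well pools, -0.15 with a pseudocount of 0.01 and -1.08 in nuclei of at least 40000 reads, and ran from -0.44 to 0.22 with 1 pool left out, negative without the 384-well Ehmt1delta/+ or the iTg pool. Snhg11 (-0.24) turned to 0.59 in 384-well pools, 0.17 with a mean of log2 values and 0.061 with a pseudocount of 1, and ran from -0.53 to 0.59 with 1 pool left out, positive without the 96-well WT pool.

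Excitatory against inhibitory, calls were lost in 96-well pools (2 pools) for Malat1 (0.46), Neat1 (1.09), Pantr1 (0.17) and Snhg11 (-0.20), in 384-well pools for Snhg11 (-0.26), where classes required the other marker at 0 for Neat1 (0.41), Pantr1 (0.65) and Snhg11 (-0.14), with no filter for Pantr1 (0.49) and with a mean of log2 values for Snhg11 (-0.20). With 1 pool left out Pantr1 ran from 0.39 to 0.62 and Snhg11 from -0.26 to -0.22. Ehmt1delta/+ against WT, 96-well and 384-well values were -0.29 and 0.48 for Neat1 and 0.82 and -0.071 for Pantr1 in inhibitory neurons, 0.33 and 0.015 for Pantr1 in neurons, and, for Snhg11, 0.061 and -0.20 in neurons, 3.37 and 1.31 in microglia and -1.58 and 0.84 in oligodendrocytes. These single pairs were added after seeing the data. Signs turned over all 6 pools for Malat1 in microglia (0.18) and for Snhg11 in neurons (0.087), excitatory (0.13) and inhibitory neurons (0.0095), with a mean of log2 values for Neat1 in inhibitory neurons (-0.12) and for Snhg11 in excitatory neurons (0.046) and oligodendrocytes (0.78), and with median scaling for Snhg11 in excitatory neurons (0.029). Genes called between neuron classes went from 10340 to 6870 in 384-well pools, 1425 in 96-well pools and 5872 with the stricter classes, and those between neurons and oligodendrocytes from 13324 to 21404 with a mean of log2 values. With that mean, 4 genes were called in microglia and 2 in oligodendrocytes for Ehmt1delta/+ against WT, and 2 in oligodendrocytes with limma's trend. Shallow 384-well glia limit what can be seen of Miat and Pantr1 there.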
